A study of Mus musculus with 9 samples.

Results

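The genes described here encode small LIM-domain proteins: Crip1 and Crip2 (CRIP family), Csrp1, Csrp2 and Csrp3 (CSRP family), and Fhl1, Fhl2 and Fhl3 (FHL family). These 8 of the 53715 gene IDs measured were chosen by family name, with their change between glycine levels already known. Their values in that comparison are therefore given as a description: no p is given for them, and counts of those past the threshold of the fit over all genes support nothing. RNA was sequenced from primary myoblasts, the dividing precursors of skeletal muscle cells, grown at 0.2 mM glycine (3 libraries) or 0.8 mM glycine (6 libraries). All 9 libraries came from passage 1 cells of the strain C57BL/10ScSn-Dmdmdx/J, which carries the mdx mutation of the dystrophin gene, so both groups share that mutation and there is no wild-type group. The 0.2 mM libraries were labelled as series Lib1 and the 0.8 mM libraries as series Lib2, so the glycine level and the library series cannot be told apart. The labels do not say whether libraries of a group came from separate cultures or animals, and p-values then measure only the spread between these libraries.

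A LIM domain is a pair of zinc fingers that binds other proteins rather than DNA. CRIP1 is little more than a single LIM domain. CSRP proteins bind the actin crosslinker alpha-actinin and zyxin, and CSRP3, also called muscle LIM protein, sits at the Z-disc, the boundary of the muscle contractile unit. FHL stands for four-and-a-half LIM domains: FHL1 is a skeletal muscle protein whose human gene is mutated in reducing body myopathy, FHL2 binds integrins and the transcription factor SRF, and FHL3 binds actin and is found at focal adhesions and in the nucleus.

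Values are TPM, a transcript abundance scaled by gene length and to a common sum in each library, so levels of different genes can be set side by side. TPM keeps no read number, so depth is unknown. Of the 10 myoblast and muscle markers, 9 rose at 0.8 mM by limma (adjusted p under 0.05 over all genes tested, which 16.7% of all tested genes passed as higher and 9.81% as lower), and their summed level was 672 to 776 TPM in the 0.2 mM libraries and 2317 to 2916 TPM in the 0.8 mM libraries. Markers of other cells were also present. Among leukocyte markers 4 rose and 1, Cd68, fell of 9 tested, with sums of 1852 to 2022 and 2048 to 2495 TPM; Cd3e, which defines T cells, reached at most 0.134 TPM. For fibroblasts 7 of 9 tested rose, but the sums overlapped at 1983 to 2401 and 1857 to 2408 TPM, and Tcf21 was listed at 0 in all 9 libraries. Dcn, at 1729 to 2083 and 1412 to 1917 TPM, made up most of these fibroblast sums, so they say little of the other fibroblast markers. Smooth muscle and pericyte markers (3 of 4 tested rose) summed to 392.4 to 439 and 1213 to 1440 TPM, most of it Acta2, while Myh11 stayed at or below 0.065 TPM. Endothelial markers (5 of 5 tested rose) summed to 12.9 to 15.1 and 24.4 to 34.0 TPM. Adipocyte markers (1 of 1 tested rose) summed to 12.9 to 14.8 and 22.6 to 34.8 TPM with Lep listed at 0. Nearly all of the adipocyte sum was Fabp4 (12.8 to 14.5 and 22.3 to 34.5 TPM), while Adipoq, Plin1, Cidec and Pparg stayed at or below 0.258 TPM. The part of these markers in the differences below was not tested. In such bulk RNA, fewer cells of a type and less RNA per cell cannot be told apart.

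At 0.8 mM glycine, 7 of the 8 genes were higher, and Csrp2 overlapped between the groups. Crip1 differed most, at 5.22 times its 0.2 mM mean, the FHL genes lay at 2.62 to 3.06 times, Csrp3 at 2.40, Crip2 at 1.79, Csrp1 at 1.62 and Csrp2 at 1.03 times. All 8 genes passed the filter of at least 1 TPM in at least 3 libraries, as did 10049 genes in all. By limma, 7 of the 8 passed the adjusted threshold of 0.05, all higher at 0.8 mM and none lower, where 26.6% of all tested genes passed, 16.7% higher and 9.81% lower. In the same 7 genes every 0.8 mM library lay above every 0.2 mM library, which held for 17.6% of the tested genes. The genes were chosen with this contrast known, so nothing is read from these shares. The median log2 difference was 1.15 over the 8 genes and 0.06 over all tested genes.

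**Figure D1:**
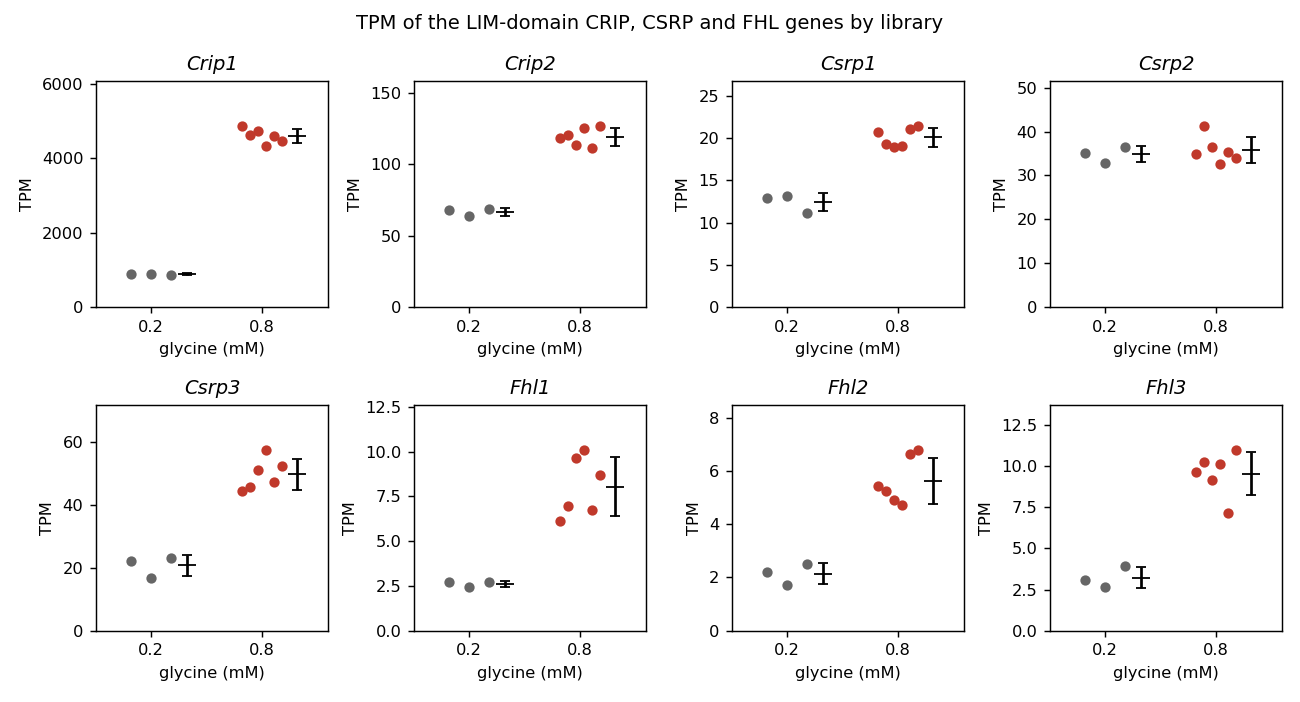
TPM of each of the 8 genes in each of the 9 libraries, one panel per gene, by glycine level, with bars for the group mean and SD. The groups are apart for every gene but Csrp2, whose 0.2 mM libraries (32.9 to 36.4 TPM) lie inside the 0.8 mM range (32.6 to 41.2 TPM).

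Crip1 encodes a very short LIM protein, with 77 codons before the stop, first described as an intestinal zinc-binding protein. Its gene lies on chromosome 12 from 113146316 to 113153879, on the plus strand of GRCm38 (mm10). The 0.2 mM libraries held 902, 889 and 855 TPM, and the 0.8 mM libraries ran from 4342 through a median of 4611 to 4865 TPM. Every 0.8 mM library was thus at least 4.82 times as high as any 0.2 mM library. The means were 882 ± 24.3 (SD, n = 3) and 4606 ± 185 (SD, n = 6) TPM. The difference of log2(TPM + 1) was 2.38 ± 0.04 (SE), which placed Crip1 at rank 26 of the 10049 tested genes by rise. By level, Crip1 moved from rank 161 to rank 28 of all 53715 gene IDs. It was also the gene of the 8 with the smallest spread between libraries, with a coefficient of variation of 2.75% at 0.2 mM and 4.03% at 0.8 mM.

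The Crip1 promoter is shown because this gene carried most of the RNA of the group and differed most. Capitals mark the GC box, GGGCGG, the sequence bound by Sp1-type factors, which was matched 3 times, at positions -211, -32 and -26 from the transcription start. The last pair of matches lies side by side. The sequence is from RefSeq (GRCm38.p6), chr12:113151762-113152061, plus strand.
Crip1 promoter: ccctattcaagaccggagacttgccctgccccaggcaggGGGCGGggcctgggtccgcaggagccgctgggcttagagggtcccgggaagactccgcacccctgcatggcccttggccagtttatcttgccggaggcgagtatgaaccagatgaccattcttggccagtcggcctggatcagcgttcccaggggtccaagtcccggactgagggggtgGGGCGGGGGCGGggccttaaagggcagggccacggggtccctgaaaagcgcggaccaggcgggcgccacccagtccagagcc

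Crip2, a longer relative with 208 codons that is known from heart and vascular cells, is the neighbour of Crip1 on chromosome 12 (113140236 to 113145506, plus strand), with 809 bases between the annotated genes. It was measured at 67.8, 63.7 and 68.8 TPM at 0.2 mM and at 112 to 127 TPM, median 119, at 0.8 mM. The groups did not overlap, and the gap was much narrower than that of Crip1. Mean levels were 66.8 ± 2.69 (SD, n = 3) and 119 ± 6.17 (SD, n = 6) TPM, a log2 difference of 0.83 ± 0.06 (SE). Crip1 was thus 12.4 to 13.9 times as abundant as Crip2 in the 0.2 mM libraries and 34.6 to 41.8 times in the 0.8 mM libraries. On the other side of Crip2, Mta1, a chromatin remodelling subunit whose gene ends 3.03 kb away, showed 4.07 ± 0.49 and 3.99 ± 0.54 TPM (limma adjusted p = 0.906, not past the threshold).

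The CSRP genes parted. Csrp3 was higher at 0.8 mM, Csrp1 was higher by less, and Csrp2 was not, although the coding sequences of the family are 69.1% to 73.7% identical. Csrp3, the muscle LIM protein gene (chromosome 7, 48830398 to 48848033, minus strand), held 22.3, 16.8 and 23.1 TPM at 0.2 mM and 44.3 to 57.4 TPM, median 49.2, at 0.8 mM. The second 0.2 mM library was the lowest of the 9, and the lowest 0.8 mM library was still 1.92 times the highest 0.2 mM library. Means were 20.7 ± 3.44 (SD, n = 3) and 49.7 ± 4.91 (SD, n = 6) TPM, and the log2 difference was 1.23 ± 0.11 (SE).

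Csrp1 encodes the family member known from smooth muscle and non-muscle cells, which binds zyxin and alpha-actinin (chromosome 1, 135720061 to 135752232, plus strand). It stood at 12.95, 13.2 and 11.2 TPM at 0.2 mM and at 19.0 to 21.4 TPM, median 20.0, at 0.8 mM. The third 0.2 mM library was the lowest, and the groups did not overlap. Means of 12.4 ± 1.09 (SD, n = 3) and 20.1 ± 1.09 (SD, n = 6) TPM gave a log2 difference of 0.65 ± 0.08 (SE).

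Csrp2, the vascular smooth muscle member of the family (chromosome 10, 110919789 to 110939622, plus strand), stood at 35.2, 32.9 and 36.4 TPM at 0.2 mM and at 32.6 to 41.2 TPM, median 35.0, at 0.8 mM. The second 0.8 mM library was the highest of the 9, and the 0.2 mM libraries lay inside the 0.8 mM range. Its means were 34.8 ± 1.80 (SD, n = 3) and 35.7 ± 2.98 (SD, n = 6) TPM, and the log2 difference of 0.03 ± 0.08 (SE) was smaller than its error.

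The order within the family thus turned between the glycine levels. Csrp3 was at 0.511 to 0.634 times the level of Csrp2 in the 0.2 mM libraries and at 1.11 to 1.76 times in the 0.8 mM libraries, above it in 0 of 3 and 6 of 6 libraries. Of the summed CSRP level, Csrp2 held 51.2% ± 1.20 at 0.2 mM and 33.9% ± 3.07 at 0.8 mM, while Csrp3 held 30.4% ± 3.19 and 47.0% ± 3.48 (SD, n = 3 and 6). Csrp1 kept 18.4% and 19.1%.

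The first promoter of Csrp3 is shown since this gene changed place with Csrp2. Capitals mark the E-box, CANNTG, the core letters bound by MyoD and other basic helix-loop-helix factors, matched 5 times, and a TATA box, TATATA, at position -13. The sequence is from RefSeq (GRCm38.p6), chr7:48848002-48848301, minus strand.
Csrp3 promoter: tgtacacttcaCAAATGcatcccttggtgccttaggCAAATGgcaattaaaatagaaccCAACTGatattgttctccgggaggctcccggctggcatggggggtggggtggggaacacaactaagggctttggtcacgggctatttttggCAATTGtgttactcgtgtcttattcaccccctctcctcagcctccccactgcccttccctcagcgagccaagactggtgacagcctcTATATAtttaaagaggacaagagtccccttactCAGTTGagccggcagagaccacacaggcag

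**Figure D2:**
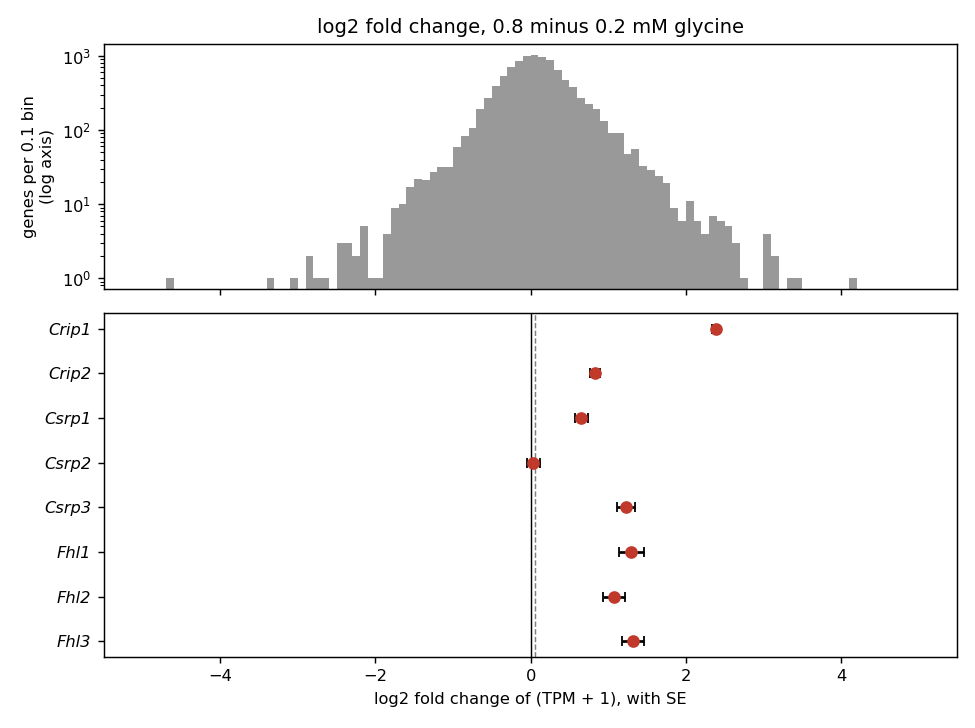
Difference of mean log2(TPM + 1), 0.8 minus 0.2 mM glycine: above, a histogram of the 10049 tested genes on a log count axis; below, each of the 8 genes with SE bars and a dashed line at the median of all genes. Crip1 lies farthest out at 2.38, Csrp3 and the FHL genes between 1.07 and 1.32, and Csrp2 at 0.03.

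The 3 FHL genes were the least abundant of the group and all were higher at 0.8 mM. Fhl1 (chromosome X, 56731787 to 56793346, plus strand) was at 2.70, 2.43 and 2.75 TPM at 0.2 mM and at 6.12 to 10.1 TPM, median 7.85, at 0.8 mM. The 0.8 mM libraries were spread widely, with the first lowest and the fourth highest, yet all lay above the 0.2 mM libraries. Means were 2.63 ± 0.171 (SD, n = 3) and 8.04 ± 1.65 (SD, n = 6) TPM, and the log2 difference was 1.3 ± 0.16 (SE).

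Fhl2 (chromosome 1, 43123074 to 43196984, minus strand), whose protein links integrins to transcription, was at 2.21, 1.71 and 2.51 TPM at 0.2 mM and at 4.73 to 6.78 TPM, median 5.33, at 0.8 mM. Here the fifth and sixth 0.8 mM libraries were highest, so the order of the libraries was not that of Fhl1. Its rank by level among all gene IDs moved from 6761 to 4200. Means of 2.14 ± 0.404 (SD, n = 3) and 5.62 ± 0.875 (SD, n = 6) TPM gave a log2 difference of 1.07 ± 0.14 (SE).

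Fhl3, an actin-binding member expressed in skeletal muscle (chromosome 4, 124700701 to 124708611, plus strand), was at 3.07, 2.67 and 3.93 TPM at 0.2 mM and at 7.14 to 10.97 TPM, median 9.87, at 0.8 mM. The fifth 0.8 mM library was the lowest of its group and still 1.82 times the highest 0.2 mM library. Means were 3.22 ± 0.643 (SD, n = 3) and 9.54 ± 1.32 (SD, n = 6) TPM, and the log2 difference was 1.32 ± 0.14 (SE). Of the summed FHL level, Fhl3 held 40.2% and 41.1% on average, Fhl1 33.1% and 34.5%, and Fhl2 26.7% and 24.4%. The mean mix of the family was thus nearly the same at both glycine levels. Single 0.8 mM libraries varied, from 34.8% to 45.6% for Fhl3, 28.9% to 40.6% for Fhl1 and 19.0% to 32.3% for Fhl2. With levels this low, the added 1 TPM narrows the log2 differences; with 0.1 TPM added they were 1.55 for Fhl1, 1.35 for Fhl2 and 1.54 for Fhl3.

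The first promoter of Fhl1 and the first and second promoters of Fhl2 are shown. They held the only CArG boxes, the site bound by SRF, among the 12 promoters searched. The second promoter of Fhl1 held no CArG box and is not shown. Capitals mark the CArG box at position -102 in the first promoter of Fhl1, and at -96 in the first and -31 in the second promoter of Fhl2. They also mark a MEF2 site at -31 in the first promoter of Fhl2. MEF2 factors act with MyoD-type factors on muscle genes. The sequences are from RefSeq (GRCm38.p6): chrX:56779433-56779732 on the plus strand, chr1:43196712-43197011 on the minus strand and chr1:43163912-43164211 on the minus strand.
Fhl1 promoter: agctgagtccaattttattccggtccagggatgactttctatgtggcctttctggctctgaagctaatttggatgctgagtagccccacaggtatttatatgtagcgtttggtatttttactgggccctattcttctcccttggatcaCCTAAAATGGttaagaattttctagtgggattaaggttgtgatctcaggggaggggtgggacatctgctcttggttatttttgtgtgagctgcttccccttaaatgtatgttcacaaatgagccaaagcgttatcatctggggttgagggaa
Fhl2 first promoter: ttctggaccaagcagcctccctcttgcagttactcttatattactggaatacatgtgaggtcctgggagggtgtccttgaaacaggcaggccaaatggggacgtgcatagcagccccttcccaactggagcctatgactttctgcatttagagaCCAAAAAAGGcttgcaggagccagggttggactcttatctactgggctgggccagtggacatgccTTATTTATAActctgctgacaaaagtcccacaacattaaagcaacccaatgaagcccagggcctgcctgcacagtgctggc
Fhl2 second promoter: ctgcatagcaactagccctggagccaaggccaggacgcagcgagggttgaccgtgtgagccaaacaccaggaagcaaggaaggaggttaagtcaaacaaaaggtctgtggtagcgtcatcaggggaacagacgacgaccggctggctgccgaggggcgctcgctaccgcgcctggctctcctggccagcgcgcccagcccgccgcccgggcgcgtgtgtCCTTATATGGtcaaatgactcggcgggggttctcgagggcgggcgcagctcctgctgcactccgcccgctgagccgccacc

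RefSeq listed 12 promoters for 7 of the 8 genes, each from 250 bases before to 50 bases after a start; Csrp2 was not in the table. Both strands were searched and overlapping matches counted. The CArG box was in 3 of the 12 promoters (2 genes) against 1.63% of all 32851 promoters of the same length, and the MEF2 site in 1 against 3.19%. The E-box was in 11 of the 12 (6 genes) against 72.3%, the GC box in 6 (5 genes) against 35.7%, and the TATA box (TATAAA or TATATA) in 3 (3 genes) against 17.1%. Several promoters belong to the same gene, so the 12 are not independent, and a match describes letters, not binding.

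The coding sequences are of like length within the CSRP and FHL families. Csrp1, Csrp2 and Csrp3 have 193, 193 and 194 codons, and Fhl1, Fhl2 and Fhl3 have 280, 279 and 280. Identity of the aligned coding bases was 73.7% for Csrp1 with Csrp2, 69.3% for Csrp1 with Csrp3 and 60.3% to 63.4% between FHL genes. No stretch of 50 bases in the transcripts of Crip1, Crip2, Csrp1, Csrp2, Csrp3, Fhl1 or Fhl2 was found in transcripts of another gene. Fhl3 shared 80 of its 1727 such stretches (4.63%) with Gm13898, a processed pseudogene whose level is not analysed here, so reads from those stretches could have been counted to either. No exon base of the 8 genes lay in an exon of another annotated gene.

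In each group Crip1 was highest, followed by Crip2, and the FHL genes were lowest in the order Fhl3, Fhl1, Fhl2. Only Fhl3 with Fhl1 and Fhl1 with Fhl2 had overlapping library ranges, in both groups; the other neighbours in the order were apart. Fhl3 was above Fhl1 in 3 of 3 libraries at 0.2 mM and in 5 of 6 at 0.8 mM. The 8 genes together summed to 1025 ± 22.3 TPM (SD, n = 3) at 0.2 mM and 4854 ± 177 TPM (SD, n = 6) at 0.8 mM, of which Crip1 alone made up 86.1% and 94.9%. The CRIP sum was 949 ± 23.3 and 4725 ± 182 TPM, the CSRP sum 67.99 ± 4.46 and 105 ± 3.30 TPM, and the FHL sum 7.99 ± 1.19 and 23.2 ± 2.27 TPM. Of the other genes of these families, Crip3 and Fhl5 were listed at 0 in all 9 libraries, and Fhl4 was listed at 0 at 0.2 mM with a mean of 0.0696 TPM at 0.8 mM.

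**Figure D3:**
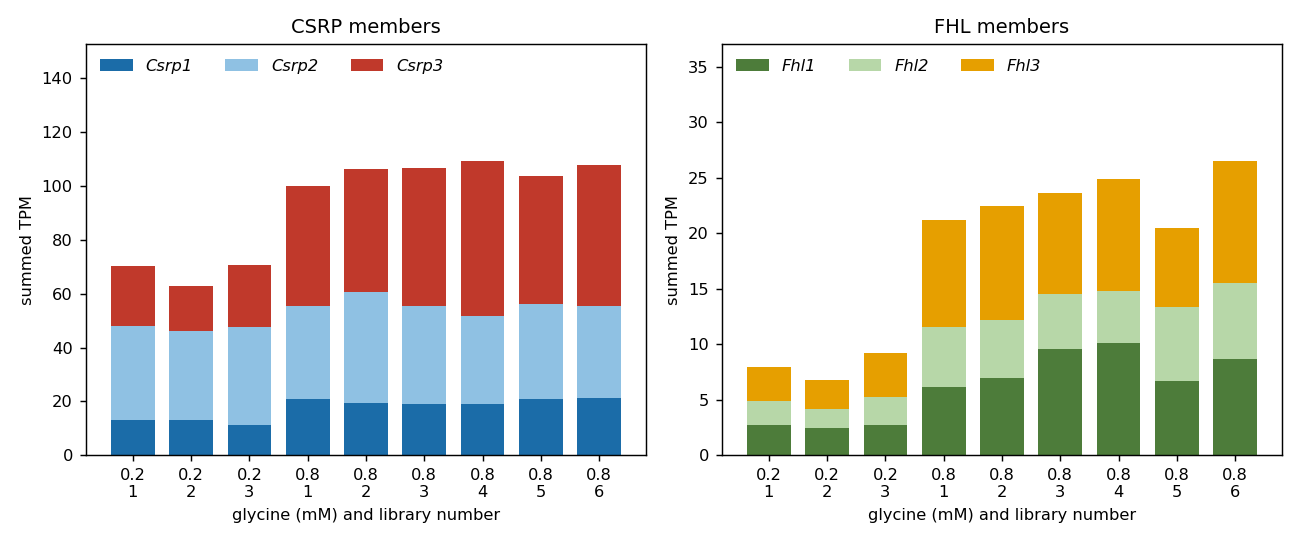
Summed TPM of the CSRP genes (left) and the FHL genes (right) in each of the 9 libraries, stacked by gene, with the glycine level and library number below each bar. Csrp3 grows from a mean of 30.4% to 47.0% of the CSRP sum between the glycine levels. The mean FHL sum grows from 7.99 to 23.2 TPM with its mean shares close to unchanged.

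Among the 6 libraries at 0.8 mM, Csrp3 and Fhl1 varied together (Pearson r = 0.934 of log2 values), as did Csrp1 with Fhl2 (r = 0.92) and Crip2 with Fhl3 (r = 0.861). Crip1 ran against Csrp3 (r = -0.805). After centring each group over all 9 libraries, the values were 0.739 for Csrp3 with Fhl1, 0.853 for Crip2 with Fhl3, -0.60 for Crip1 with Csrp3 and only 0.222 for Csrp1 with Fhl2. These are descriptions of 28 pairs in libraries that share a scaling to a common sum. The 3 libraries highest for Fhl1 were also the 3 highest for Csrp3.

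Across all 9 libraries, the genes most like each member were sought among 4173 tested protein-coding genes with a mean of at least 5 TPM. Genes with clone, predicted gene, pseudogene or mitochondrially encoded symbols were left out of this search. For Crip1 these were Tuba1a (an alpha-tubulin), Gal (the neuropeptide galanin) and Scd2 (a fatty acid desaturase), each at r = 0.997. Crip2 was most like Nes (nestin, 0.994), Fdps (a sterol synthesis enzyme, 0.994) and Tmem8c (the myoblast fusion factor myomaker, 0.993). Csrp1 was closest to Sfr1 (0.986), Yif1a (0.984) and Ckap4 (0.984). Csrp3 was most like Tnni2 (fast skeletal troponin I, 0.992), Eny2 (0.99) and Rarres2 (chemerin, 0.987), and Fhl1 like Akr1b8, Eny2 and Uqcc2 (0.981 each). Fhl2 was closest to Gpr180 (0.988), Bag3 (a Z-disc co-chaperone, 0.98) and P4ha1 (0.98). Fhl3 was most like Bin1 (0.992), Myod1 (the muscle-determining factor MyoD, 0.991) and Lmna (0.99). Csrp2 had no gene as close: Mtif2 (0.90), Cnot8 (0.876) and Cox16 (0.849) led. Other than for Csrp2, the groups were apart, so these correlations include the difference between the groups.

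The wider LIM genes did not all move this way. Of 61 listed, 36 could be tested, of which 13 rose, 3 fell and 20 did not pass (36.1% and 8.33%, against 16.7% and 9.81% of all genes), with a median log2 difference of 0.262. The PDZ-LIM genes, whose proteins join a PDZ and LIM domains at the Z-disc and on stress fibres, gave 6 up, none down and 2 not past the threshold of 8 tested, with a median of 0.998. Pdlim5 rose from 8.43 ± 1.77 to 29.9 ± 1.21 TPM (log2 difference 1.73 ± 0.11 SE). Pdlim3 rose from 8.49 ± 1.17 to 29.1 ± 2.59 TPM, and Ldb3, the Z-disc protein ZASP, from 3.46 ± 0.46 to 11.6 ± 2.42 TPM. Lmo7 and Pdlim4, named after their values were seen since they complete the count, did not pass the test, at 2.31 and 2.71 TPM and at 92.9 and 103 TPM.

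Paxillin, zyxin and other adhesion LIM genes were mixed, with 3 up, 2 down and 8 not past the threshold of 13 tested and a median of 0.0124. That is 23.1% up and 15.4% down, against 16.7% and 9.81% of all tested genes. Tgfb1i1, the paxillin relative Hic-5, rose from 8.38 ± 0.88 to 12.3 ± 1.35 TPM, while Limd2 fell from 18.4 ± 0.81 to 13.3 ± 1.49 TPM. Zyx, which encodes the CSRP partner zyxin, rose from 29.6 ± 2.43 to 35.6 ± 2.26 TPM (limma adjusted p = 0.037), and Trip6, a zyxin relative, fell from 19.3 ± 1.97 to 12.2 ± 3.50 TPM (limma adjusted p = 0.0365). Neither call held throughout: leaving out any of 5 single libraries ended the Zyx call (limma adjusted p up to 0.154 without the second 0.2 mM library), and any of 6 ended the Trip6 call (up to 0.125 without the third 0.2 mM library). Fblim1, named after its values were seen since it completes the count, rose from 0.75 ± 0.19 to 1.68 ± 0.64 TPM, and its call was also lost without any of 6 single libraries (limma adjusted p up to 0.156 without the third 0.2 mM library).

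Other actin-binding LIM genes gave 4 up (36.4%), none down and 7 not past the threshold of 11 tested, with a median of 0.379. All tested genes gave 16.7% up and 9.81% down. Lima1 (EPLIN) rose from 4.59 ± 1.05 to 6.56 ± 0.54 TPM (limma adjusted p = 0.0257), a call lost without any of 3 single libraries (up to 0.117 without the third 0.2 mM library). Ablim3, Mical2 and Nrap, named after their values were seen since they complete the count, also rose, from means of 0.53, 0.72 and 0.38 TPM to 1.47, 2.25 and 1.22 TPM. Of the nuclear LIM genes only 4 of 18 could be tested, and Lmo4, a transcriptional cofactor, fell from 32.0 ± 2.98 to 21.4 ± 2.62 TPM (log2 difference -0.56 ± 0.11 SE) while the other 3 did not pass. That list includes Ldb1 (tested) and Ldb2 (not tested), named outside the rule, whose proteins bind LIM domains but hold none. The wider LIM counts thus include them.

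The next list holds genes whose proteins share the Z-disc with CSRP3. Of 15 tested Z-disc and titin partner genes, 12 rose, none fell and 3 did not pass, with a median log2 difference of 0.895. Tcap, the titin cap protein that binds CSRP3, rose from 1.56 ± 0.85 to 9.59 ± 1.52 TPM (log2 difference 2.09 ± 0.20 SE). Des, which encodes the muscle intermediate filament desmin, rose from 104 ± 12.8 to 356 ± 30.5 TPM (log2 difference 1.76 ± 0.09 SE). Ldb3 and Nrap are in this list and among the PDZ-LIM and actin-binding LIM genes.

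Another list holds genes of integrin adhesions, where FHL2, FHL3 and CSRP1 are found. It gave 10 up (41.7%), none down and 14 not past the threshold of 24 tested, with a median of 0.30. Over all tested genes 16.7% rose and 9.81% fell. Fermt2 (kindlin-2) rose from 13.2 ± 1.84 to 24.9 ± 3.36 TPM, Vcl (vinculin) from 3.31 ± 0.20 to 6.09 ± 1.01 TPM and Tln1 (talin) from 11.8 ± 1.08 to 18.7 ± 1.09 TPM. The count depended on single libraries: it was 6 without the second 0.2 mM library and 6 without the third 0.8 mM library. It was 5 under quantile normalization.

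A further list holds target genes of SRF and its cofactor MRTF, many of them cytoskeletal, and the genes of these regulators. Of 28 tested, 14 rose, none fell and 14 did not pass, with a median of 0.436. Not all are cytoskeletal targets. The regulator genes Srf, Mkl1 and Mkl2 did not pass, nor did Ctgf, Cyr61, Egr1, Egr2, Fos, Fosl1 and Junb. Some cytoskeletal targets did not pass either: Flna, Tagln2, Wdr1 and Myh9, with log2 differences of 0.02, 0.06, 0.38 and -0.34. Thbs1 and Itga5, which are not cytoskeletal either, rose. The Itga5 call was lost without any of 4 single libraries (limma adjusted p up to 0.145 without the second 0.2 mM library). These genes are named outside the rule, to describe the list. Myl9 (myosin light chain) rose from 3.85 ± 1.10 to 25.7 ± 2.75 TPM (log2 difference 2.48 ± 0.15 SE), Tagln (transgelin) from 3.02 ± 0.58 to 21.3 ± 2.50 TPM, and Acta2 (smooth muscle actin) from 412 ± 24.5 to 1301 ± 88.2 TPM. Srf itself, also named outside the rule, showed 1.82 ± 0.10 and 1.67 ± 0.22 TPM (limma adjusted p = 0.688, not past the threshold). Vcl, Flna and Itga5 are in this list and in that of integrin adhesions. Acta2 and Tagln are also smooth muscle markers, whose sums are given above.

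**Figure D4:**
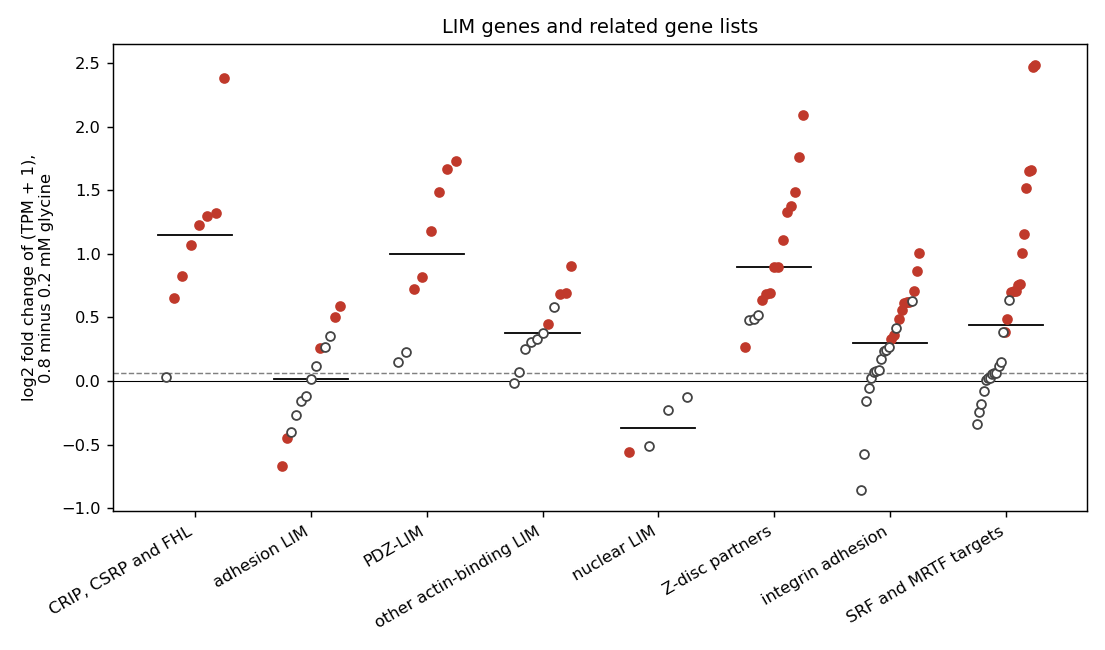
Log2 difference of each tested gene in each gene list and in the 8 LIM genes, 0.8 minus 0.2 mM glycine; filled points passed the limma threshold, open points did not, black bars are list medians and the dashed line is the median of all tested genes. The medians are 1.15 for the 8 genes, 0.998 for PDZ-LIM, 0.895 for Z-disc partners and 0.0124 for adhesion LIM genes.

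Of the 14 nearest tested genes beside the members that are not members themselves, 4 rose, none fell and 10 did not pass, where 16.7% of all tested genes rose and 9.81% fell. Phlda3, 13.9 kb from Csrp1, rose from 26.6 ± 1.55 to 35.6 ± 2.44 TPM, and AC159092.1, 534 kb from Fhl2, from 3.77 ± 0.36 to 6.93 ± 1.01 TPM. E2f8, a cell cycle repressor gene beside Csrp3, rose from 0.87 ± 0.67 to 2.26 ± 0.49 TPM with overlapping libraries, a call lost without the first or the second 0.2 mM library (limma adjusted p up to 0.0692, without the second). Nav1, 113 kb away on the other side of Csrp1, passed narrowly at 0.29 ± 0.10 and 0.95 ± 0.40 TPM (limma adjusted p = 0.0497). That call was lost in 4 of the 6 fits without 1 library in which it could be tested. Among those that did not pass were Zfp386 (2894 kb from Crip1), Nav3 (464 kb from Csrp2), Zdhhc17, Zdhhc13, Htatsf1 (260 kb from Fhl1), AC161207.1, Utp11, Sf3a3 and Mta1. Utp11, beside Fhl3, was at 16.2 and 14.5 TPM.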

How the data were processed

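Total RNA of 9 libraries (3 at 0.2 mM and 6 at 0.8 mM glycine) was extracted with Trizol and prepared with an Illumina TruSeq kit, per the labels' protocols. HISAT2 2.0.5, StringTie 1.3.3, DESeq2 and the mm10 build were used by the authors, per the submitters' processing notes; no source used here states settings or order. Deposited values were TPM for 53715 gene IDs; each library sums to a common total, so an abundant RNA lowers the others, and depth is unknown.

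Genes with at least 1 TPM in at least 3 libraries (10049) were compared as log2(TPM + 1) with limma 3.58.1 in R 4.3.3 (empirical Bayes with a trend, two-sided, Benjamini-Hochberg over all of them, threshold 0.05), checked on simulated data. Fold changes on this scale understate low genes. Errors after ± are SDs unless marked SE. The members and lists were chosen with earlier results of these data known. Named genes are all members; of each list up to 3 that rose most and 3 that fell most with a mean of at least 5 TPM and groups apart; family members outside the group; the nearest tested gene on each side (1 is not reported here); and the 3 most correlated genes. Genes named outside this rule are marked as such or stand as markers. Positions come from GENCODE M21 (GRCm38), which held 53620 of the IDs. No protein sequences were used, so LIM domains were not searched for. Alternatives were pseudocount, filter, scaling, leaving out abundant genes, the fit, each library and a replicate block.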

Additional observations from a re-analysis of the deposited data

How the results depend on the processing

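Crip1, Crip2, Csrp1, Csrp3, Fhl1 and Fhl3 stayed past the limma threshold and higher at 0.8 mM in all 22 alternatives run, and Fhl2 in the 21 in which it was tested; Csrp2 was past it in 0 of 22 and higher in 16. None of these 7 members changed direction, nor did any gene of the lists or neighbours that passed. Scaling by median ratios gave a log2 difference of 2.3 for Crip1 and 0.742 for Crip2, quantile normalization gave 0.71 for Crip2, and a pseudocount of 0.1 gave 1.55 for Fhl1, 1.35 for Fhl2 and 1.54 for Fhl3. The wider LIM genes that rose numbered 8 with a mean of at least 5 TPM, where fewer genes are tested. The integrin adhesion genes that rose numbered 5 without a filter, where more genes are tested, 5 under quantile normalization, and 6 to 9 when 1 library was left out; those that fell numbered 0 to 1. SRF and MRTF target genes that fell numbered 1 with median ratios (Myh9), 2 under quantile normalization (Myh9 and Tagln2, of which Tagln2 had a log2 difference of 0.06 without it and did not pass) and 0 to 1 when 1 library was left out. Leaving out 1 library gave 1304 to 1626 genes higher and 720 to 968 lower over all tested genes, against 1683 and 986 in the main fit. The balance moved with scaling: median ratios gave 1419 higher and 1279 lower, and quantile normalization gave 1324 and 1335. The shares of all genes that rose and fell thus hold for TPM as deposited. Beyond the fewer or more genes tested, the cause was not tested.

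With a replicate block over the libraries numbered 1 to 3, 1117 genes rose and 596 fell, with 7 wider LIM genes and 5 integrin adhesion genes up; the same libraries with no replicate block gave 1312 and 736, with 9 and 8. Same-numbered libraries correlated at only 0.0383, 0.00233 and 0.107 in their deviations from the group means. Not every library correlated best with its own number. With only 3 libraries per group in this check, it cannot tell whether the numbers pair the libraries. TPM carries no read number, so what depth limits in the low FHL genes cannot be given.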
